A study of Mus musculus with 4 samples.

Results

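Kupffer cells, the macrophages that live in the sinusoids of the liver, were described through 10 genes that mark their identity: *C1qa*, *C1qb*, *C1qc*, *Vsig4*, *Clec4f*, *Timd4*, *Marco*, *Cd5l*, *Slc40a1* and *Id1*. The list was drawn up with earlier results of these data known and its genes were found by symbol, so that 10 of the 33696 genes in the count matrices are covered and all 10 were present in both. Livers were taken at an age of 2 months from mice that carried *Stab2-CrexERT2* together with *R26-LSL-tdT* (genotype label S2, treatment label no) and had been exposed to tamoxifen at E9.5, and the sorted cells were profiled by 10x 5′ single-cell RNA sequencing. CD45+ tdTomato+ cells made up the first library and CD45+ tdTomato- cells, the control, the second. In this model Cre is driven from *Stab2*, a gene that adult sinusoidal endothelial cells also express, and a cell keeps tdTomato, as do its descendants, once Cre has acted in it. Each sort gave 1 library, the number of animals behind a library was not given in the sources used here, and the tdTomato+ library was labelled batch 1 and the tdTomato- library batch 2. There were thus no replicates and no test was possible: intervals below are 95% intervals that cover counting error alone, and sort, batch and animal cannot be told apart.

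Kupffer cells clear microbes, dying cells and aged red cells from the blood that passes through the sinusoids. Their identity genes fall into a few roles. *C1qa*, *C1qb* and *C1qc* encode the 3 chains of C1q, the recognition molecule of the classical complement pathway, which macrophages make in large amounts. *Vsig4* encodes a receptor for fragments of complement C3 on opsonized particles, and *Clec4f* a C-type lectin that in mice is restricted to Kupffer cells. *Timd4* encodes a receptor for phosphatidylserine on dying cells and is known from long-resident macrophages, *Marco* is a class A scavenger receptor, and *Cd5l* encodes a secreted scavenger receptor protein that macrophages release. *Slc40a1* encodes ferroportin, the exporter that returns iron from digested red cells to the blood, and *Id1* encodes an inhibitor of helix-loop-helix transcription factors that responds to bone morphogenetic protein (BMP) signals.

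On the GRCm38 genome (GENCODE vM21) the C1q genes lie side by side on the minus strand of chromosome 4, *C1qa* (ENSMUSG00000036887) at 136895917 to 136898803, *C1qc* (ENSMUSG00000036896) at 136889804 to 136893065 and *C1qb* (ENSMUSG00000036905) at 136880129 to 136886187. *Vsig4* (ENSMUSG00000044206) spans 96247203 to 96293438 on the minus strand of chromosome X, and *Clec4f* (ENSMUSG00000014542) 83644542 to 83656187 on the minus strand of chromosome 6. *Timd4* (ENSMUSG00000055546) spans 46810800 to 46844332 on the plus strand of chromosome 11 and *Cd5l* (ENSMUSG00000015854) 87357881 to 87371073 on the plus strand of chromosome 3. Chromosome 1 holds *Marco* (ENSMUSG00000026390), at 120474538 to 120505024, and *Slc40a1* (ENSMUSG00000025993), at 45908068 to 45926523, both on the minus strand. *Id1* (ENSMUSG00000042745) lies at 152736251 to 152737410 on the plus strand of chromosome 2. None of the 10 overlaps another gene on its strand.

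Promoter sequence from RefSeq (GRCm38.p6, 250 bases before to 50 after the annotated start, 5′ to 3′ on the strand of the gene) was found for 7 of the 10 genes. *C1qa*, *Slc40a1* and *Id1* had no entry. PU.1, an ETS factor encoded by *Spi1*, is a known regulator of mouse macrophages, and the letters GAGGAA, an ETS core, were searched on both strands. Of 32851 promoters of the same length, 28.3% held these letters. The promoters of the neighbouring *C1qb* and *C1qc*, of the gate genes *Vsig4* and *Clec4f* and of *Cd5l* are shown, with the matches in capitals. These genes rank high by level in Kupffer cells over other classes below. The gates themselves favour that rank for all of them.
*C1qb*, chr4:136886151-136886450, minus strand: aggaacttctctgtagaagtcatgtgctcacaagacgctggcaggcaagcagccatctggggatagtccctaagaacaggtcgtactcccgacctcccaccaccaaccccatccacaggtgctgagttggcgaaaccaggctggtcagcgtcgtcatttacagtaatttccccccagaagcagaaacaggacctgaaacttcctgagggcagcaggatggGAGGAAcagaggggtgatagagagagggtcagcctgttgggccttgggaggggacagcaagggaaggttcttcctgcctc
*C1qc*, chr4:136892865-136893164, minus strand: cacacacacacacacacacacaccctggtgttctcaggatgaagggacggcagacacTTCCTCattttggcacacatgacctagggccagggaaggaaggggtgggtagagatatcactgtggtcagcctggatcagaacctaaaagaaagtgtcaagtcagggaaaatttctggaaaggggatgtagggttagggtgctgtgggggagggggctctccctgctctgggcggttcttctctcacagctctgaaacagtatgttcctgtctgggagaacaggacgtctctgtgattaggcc
*Vsig4*, chrX:96293389-96293688, minus strand: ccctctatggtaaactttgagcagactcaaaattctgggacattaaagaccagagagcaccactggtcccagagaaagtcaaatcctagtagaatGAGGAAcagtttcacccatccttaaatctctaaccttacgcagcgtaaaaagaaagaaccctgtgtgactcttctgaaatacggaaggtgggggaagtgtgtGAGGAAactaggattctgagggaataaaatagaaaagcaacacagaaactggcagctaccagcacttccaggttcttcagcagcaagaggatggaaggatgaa
*Clec4f*, chr6:83656067-83656366, minus strand: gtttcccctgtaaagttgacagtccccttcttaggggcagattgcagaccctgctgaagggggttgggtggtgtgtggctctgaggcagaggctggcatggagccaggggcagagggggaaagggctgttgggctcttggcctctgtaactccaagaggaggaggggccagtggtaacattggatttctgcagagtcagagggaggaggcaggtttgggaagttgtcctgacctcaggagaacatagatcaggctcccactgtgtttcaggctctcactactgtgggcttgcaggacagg
*Cd5l*, chr3:87357631-87357930, plus strand: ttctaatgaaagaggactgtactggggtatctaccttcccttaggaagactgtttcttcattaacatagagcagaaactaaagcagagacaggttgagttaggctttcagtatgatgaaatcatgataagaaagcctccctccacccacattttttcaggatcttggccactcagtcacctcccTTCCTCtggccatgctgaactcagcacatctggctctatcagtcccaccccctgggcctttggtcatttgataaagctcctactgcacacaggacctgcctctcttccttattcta
The ETS letters matched 1 time each in *C1qb*, *C1qc*, *Cd5l* and *Marco*, 2 times in *Vsig4*, and 0 times in *Clec4f* and *Timd4*. A match describes the letters only.

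A barcode was kept where it had 300 genes or more and no more than 10% of mitochondrial counts. This held for 17509 of 17957 barcodes in the tdTomato+ library and 18173 of 18444 in the tdTomato- library, with medians of 8955 and 7128 unique molecular identifiers (UMIs) per barcode. A Kupffer cell was a kept cell with at least 3 *C1qa* counts and at least 1 count of *Clec4f* or *Vsig4*. This gate held 905 tdTomato+ cells, 5.17% of those kept (4.85 to 5.51%), and 236 tdTomato- cells, 1.30% (1.14 to 1.47%). Levels are given as CPM, the counts of a gene over all UMIs summed over the cells of a class, scaled to a total of 1e+06. Cells with as much *C1qa* but neither *Clec4f* nor *Vsig4* were called other C1qa cells (123 tdTomato+ and 225 tdTomato-), and the remaining classes were monocytes (443 and 246), endothelial cells (6429 and 21) and T cells (2415 and 13654), all with under 3 *C1qa* counts. B cells (262 and 346) served beside T cells as a measure of free RNA. The libraries shared 84 barcodes, of which 0 were Kupffer cells. Although both sorts were labelled CD45+, 36.7% of the kept tdTomato+ cells and 0.116% of the kept tdTomato- cells fell in the endothelial class, which by its gate has no count of *Ptprc*, the gene of CD45.

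The Kupffer label was checked against 21 markers, the 10 genes among them. Apart from the 3 that the gate itself requires, *C1qa*, *Clec4f* and *Vsig4*, every one reached 50 CPM in it in both libraries. Other C1qa cells, which lack *Clec4f* and *Vsig4* by definition, had 16 of the 21 at that level in each library. Monocytes had 8 (tdTomato+) and 7 (tdTomato-). The number of markers past 50 CPM thus separates Kupffer cells poorly from other C1qa cells. Summed levels, gate genes included, were 33391 and 28750 CPM in Kupffer cells, against 8468 and 9245 CPM in other C1qa cells. The gate was also not pure. In it 42.5% of tdTomato+ and 11.4% of tdTomato- cells had at least 5 counts of the endothelial genes *Stab2*, *Kdr*, *Ptprb* and *Clec4g*, and 16.5% and 35.2% had at least 3 counts of *Cd3d*, *Cd3e* and *Cd3g*. The summed level of the 12 endothelial markers in the files was 3186 CPM in tdTomato+ cells, against 258 CPM in tdTomato- Kupffer cells, and that of 8 T cell markers 386 and 1166 CPM. Kupffer cells with at most 1 of these endothelial counts and no *Cd3d*, *Cd3e*, *Cd3g* or *Cd79a* count are called lone Kupffer cells. They numbered 223 (24.6% of the gate) in the tdTomato+ library, against 73 (30.9%) in the tdTomato- library, with 159 and 184 CPM of endothelial and 18.6 and 1.42 CPM of T cell markers, and the ratios of the 10 genes and the counts of the gene lists between the libraries are given with them too. Summed monocyte markers came to 4045 and 7098 CPM in all Kupffer cells and to 5996 and 9323 CPM in lone Kupffer cells. In lone Kupffer cells with a *Clec4f* count they came to 4881 and 6231 CPM. Lone cells were also shallower, with medians of 8453 and 8610 UMIs, against 13705 and 13578 UMIs in the whole gate. Depth and other cells' RNA thus change together between the whole gate and lone cells. Their separate parts were not tested. Beyond the values in lone cells, the part of other cells' RNA in the results was not tested.

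Across the cell classes 9 of the 10 genes had their highest level in Kupffer cells in each library, and *Id1* did not. Of all genes with 50 CPM in at least 1 class, 17.6% in the tdTomato+ library, against 16.9% in the tdTomato- library, were highest in Kupffer cells. *C1qa*, *Clec4f* and *Vsig4* define the gate, which fixes their place. The limit on *C1qa* in the other classes also lowered *C1qb* and *C1qc* there, and *Cd5l*, *Timd4*, *Marco* and *Slc40a1* in monocytes. Without it monocytes had 333 CPM of *C1qb* in the tdTomato+ library, against 369 CPM in the tdTomato- library. T cells then had 14.3 and 65.7 CPM of *C1qb* and 11.1 and 50.7 CPM of *C1qa*. The same 9 genes were highest in Kupffer cells. The plot of levels by class shows the order.

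**Figure D1:**
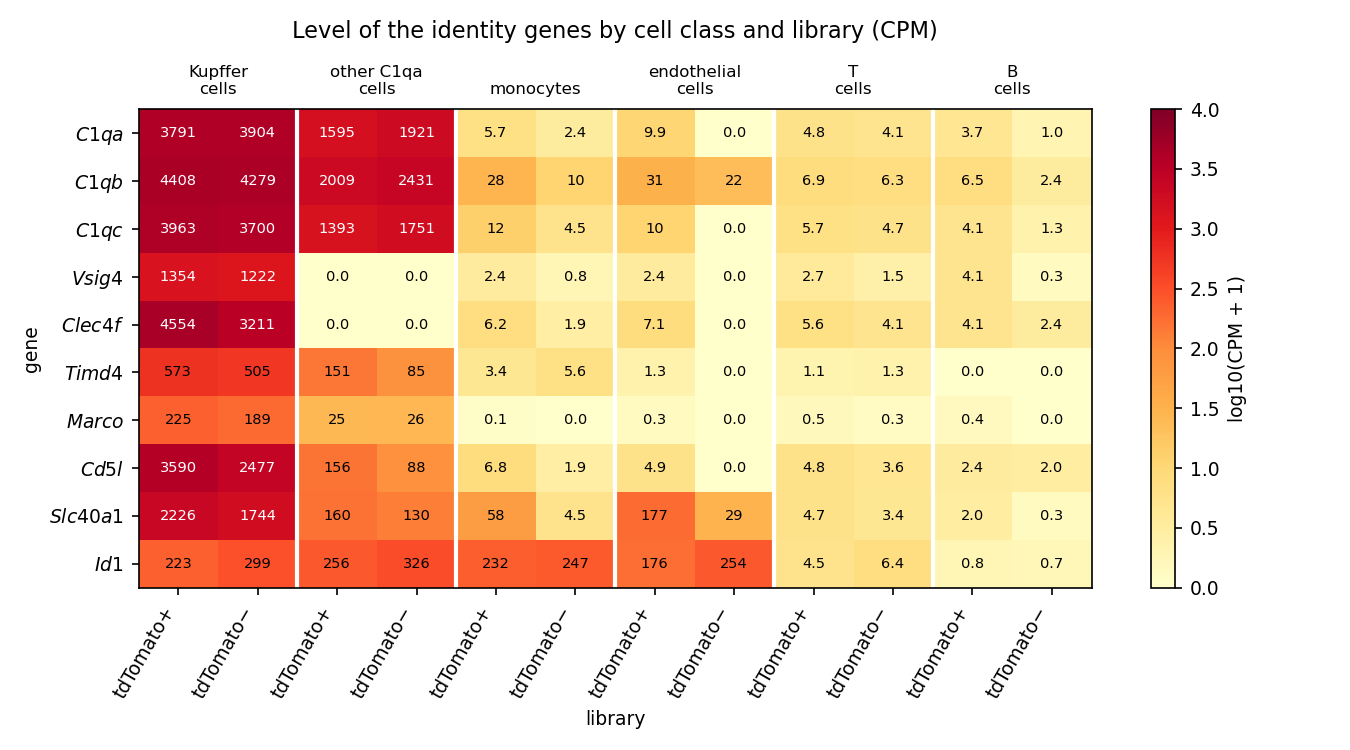
Level of the 10 genes (rows) in 6 cell classes, each with the tdTomato+ library left of the tdTomato- library. Numbers are CPM of summed counts and the colour is log10(CPM + 1). In Kupffer cells all 10 genes had at least 189 CPM. T and B cells, limited to under 3 *C1qa* counts, had at most 6.87 CPM of any of them. *Id1* stood at 176 to 326 CPM in every class but these lymphocytes.

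Over the whole gate the C1q chains differed least between the libraries. *C1qa* was at 3791 CPM (3759 to 3823) in tdTomato+ cells, against 3904 CPM (3840 to 3968) in tdTomato- Kupffer cells, *C1qb* at 4408 and 4279 CPM and *C1qc* at 3963 and 3700 CPM. Their log2 ratios of tdTomato+ over tdTomato- were −0.04, 0.04 and 0.10, which is 0.971, 1.03 and 1.07 on the linear scale. With *C1qb* in place of *C1qa* in the gate, *C1qa* was at 3694 CPM in tdTomato+ cells, against 3933 CPM in tdTomato- cells. At 2000 UMIs drawn from each cell, with shallower cells left out, *C1qb* was detected in 94.97% of 874 tdTomato+ and 96.8% of 222 tdTomato- Kupffer cells, and *C1qc* in 95.9% and 95.05%. T cells gave 0.960% and 1.03% for *C1qb* at that depth, and B cells 0.769% and 0.585%. The full median depth was 13705 and 13578 UMIs in Kupffer cells and 8152 and 7546 UMIs in T cells.

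C1q RNA was also plentiful in cells without either *Clec4f* or *Vsig4*. Other C1qa cells had 2009 CPM of *C1qb* in the tdTomato+ library, against 2431 CPM in the tdTomato- library, and 1393 and 1751 CPM of *C1qc*. Of them 36 tdTomato+ and 172 tdTomato- cells carried at least 3 *Cd3* counts. The 26 and 36 that passed the limits for lone cells had 3844 and 4517 CPM of *C1qb* and 2648 and 3426 CPM of *C1qc*. Red cell markers stood apart in them, at 5.31 CPM in the tdTomato+ and 89258 CPM in the tdTomato- lone cells, with 0 and 4 of 4 markers at 50 CPM, and at 6895 and 20849 CPM in all other C1qa cells. The part of red cell RNA in these levels was not tested. In these lone other C1qa cells *Timd4* was at 395 and 242 CPM and *Cd5l* at 417 and 312 CPM, against 680 and 552 CPM and 4029 and 2957 CPM in lone Kupffer cells. A large part of the tdTomato- library's C1q counts sat outside the gate: Kupffer cells held 92.1% of the *C1qa* counts of the tdTomato+ but 61.7% of those of the tdTomato- library, and other C1qa cells 5.93% and 35.2%.

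The balance of the chains differed between classes. Kupffer cells had 1.11 *C1qb* counts for each *C1qc* count in the tdTomato+ library (1.10 to 1.12) and 1.16 in the tdTomato- library (1.13 to 1.18). In other C1qa cells the ratio was 1.44 (1.38 to 1.51) and 1.39 (1.35 to 1.43), above the interval of Kupffer cells of the same library. In tdTomato+ endothelial cells, which had 31.4 CPM of *C1qb*, it reached 3.05 (2.76 to 3.38), from 1550 and 508 counts in 6429 cells. Those counts were thinly spread, with *C1qb* in 912 of the cells, 65.1% of which had 1 count. How reads mapped at *C1qb* was not checked, which bears on the ratios of endothelial cells and monocytes and on the share of cells with *C1qb*. T cells, used here as a measure of free RNA, stood at 1.21 (0.951 to 1.54) in the tdTomato+ library, against 1.32 (1.18 to 1.47) in the tdTomato- library. The first interval holds the Kupffer cell ratio. The highest *C1qb* count in 1 T cell was 36 of 157 and 34 of 761, so this measure is not of free RNA alone. At 2000 UMIs *C1qb* was detected in 5.65% of tdTomato+ endothelial cells, and *C1qc* in 1.78%, against 0.960% and 1.25% of T cells. The endothelial ratio was 3.01 when no limit was set on *C1qa*. Monocytes gave 2.31 (1.80 to 3.002) and 2.29 (1.27 to 4.32), the second from 39 and 17 counts. The highest *C1qb* count in 1 monocyte was 41 of 206 in the tdTomato+ and 12 of 39 in the tdTomato- library. The intervals leave out such clustering. With no limit on *C1qa* the monocyte ratios fell to 1.54 (1.44 to 1.63) in the tdTomato+ and 1.35 (1.25 to 1.45) in the tdTomato- library. They thus depended on the limit. The 21 tdTomato- endothelial cells held 3 *C1qb* counts and no *C1qc* count, which allows no ratio.

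**Figure D2:**
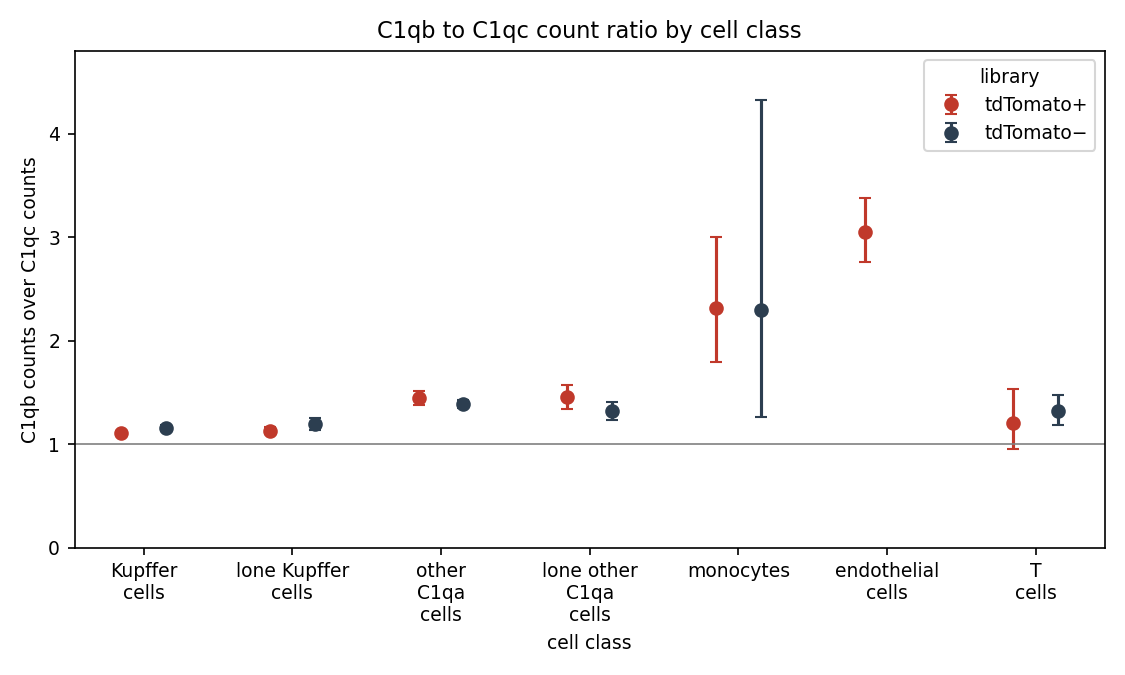
*C1qb* counts over *C1qc* counts (vertical axis, linear) for 7 cell classes, with the tdTomato+ library left of the tdTomato- library in each. Points are ratios of summed counts, bars are 95% counting intervals, the line marks equal counts, and tdTomato- endothelial cells are left out for want of counts. Kupffer cells lie at 1.11 and 1.16, tdTomato+ endothelial cells at 3.05.

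*Vsig4* and *Clec4f*, the surface receptors of the gate, were near the free RNA level of T and B cells in monocytes and endothelial cells. The gates shape this, since a cell with at least 3 *C1qa* counts and either gene counts as a Kupffer cell. *Vsig4* was at 1354 CPM in tdTomato+ cells, against 1222 CPM in tdTomato- Kupffer cells, and *Clec4f* at 4554 and 3211 CPM. In monocytes, endothelial cells, T cells and B cells *Vsig4* did not pass 4.06 CPM and *Clec4f* did not pass 7.05 CPM. Each was also read with a gate that used the other gene alone. Cells with *C1qa* and *Clec4f* had 1368 CPM of *Vsig4* in the tdTomato+ library, against 1365 CPM in the tdTomato- library. Cells with *C1qa* and *Vsig4* had 4775 and 3567 CPM of *Clec4f* (log2 ratio 0.42, 0.39 to 0.45), and 99.2% and 87.0% of them had a *Clec4f* count. The log2 ratio of *Vsig4* in cells chosen by *Clec4f* was 0.00 (−0.04 to 0.05), and −0.14 (−0.24 to −0.03) when these were lone cells.

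The threshold on *C1qa* cut through cells of rising level. Cells with 3 or 4 *C1qa* counts and a partner gene (55 tdTomato+ and 14 tdTomato-) had 802 and 727 CPM of *Clec4f*, 612 and 419 CPM of *Cd5l* and 115 and 233 CPM of *Timd4*. Just outside, cells with 1 or 2 *C1qa* counts and a partner gene (142 and 111) had 319 and 388 CPM of *Clec4f* with a median of 1 partner count. Most of the gate lay well inside, with 787 tdTomato+ and 207 tdTomato- cells at 10 or more *C1qa* counts.

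The scavenger genes differed from each other in how they were spread over Kupffer cells. *Cd5l* was at 3590 CPM (3559 to 3621) in tdTomato+ cells, against 2477 CPM (2427 to 2528) in tdTomato- Kupffer cells and was found in 96.9% and 87.3% of them. The cell at the median had 3730 and 2588 CPM and the cell at the 10th percentile 657 and 0 CPM, so that the tdTomato- gate held cells without *Cd5l*. *Timd4* was at 573 CPM (561 to 586) and 505 CPM (483 to 529). It was detected in 62.8% (59.5 to 66.0%) of tdTomato+ and 56.3% (49.5 to 62.9%) of tdTomato- Kupffer cells at 2000 UMIs, intervals that overlap, against 0.334% and 0.228% of T cells. Without thinning the shares were 90.9% and 85.2%, so most Kupffer cells without *Timd4* at the lower depth were not free of it.

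*Marco* was the patchy member. Its level was 225 CPM (218 to 233) in tdTomato+ cells, against 189 CPM (175 to 204) in tdTomato- Kupffer cells, but the median cell had none. The 10% of cells with the most *Marco* counts held 69.8% and 73.0% of them, whereas for *Timd4* the leading 10% held 28.9% and 35.8% and for *C1qb* 26.8% and 26.4%. At 2000 UMIs *Marco* was detected in 21.7% (19.0 to 24.6%) of tdTomato+ and 19.8% (14.8 to 25.7%) of tdTomato- Kupffer cells, and in 44.4% and 33.1% without thinning. T cells gave 0.0834% and 0.0393% at 2000 UMIs. Outside the Kupffer gate *Marco* was found in 2.44% of 123 tdTomato+ and 3.11% of 225 tdTomato- other C1qa cells, at 24.6 and 26.1 CPM. Among lone cells other C1qa cells had 130.0 CPM in the tdTomato+ library, against 249 CPM in the tdTomato- library, where this was above the 133 CPM of lone Kupffer cells, but the counts came from 1 of 26 and 4 of 36 cells. In lone Kupffer cells *Marco* was detected in 24.2% of 198 tdTomato+ and 19.7% of 61 tdTomato- cells at 2000 UMIs.

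*Slc40a1* was at 2226 CPM (2202 to 2250) in tdTomato+ cells, against 1744 CPM (1702 to 1787) in tdTomato- Kupffer cells and was detected in 91.3% and 80.2% of them at 2000 UMIs. Ferroportin was also an endothelial gene: tdTomato+ endothelial cells had 177 CPM (173 to 181), 12.6-fold below Kupffer cells of that library, and 61.4% of them had a count. The 21 tdTomato- endothelial cells had 29.1 CPM, from 4 counts. Kupffer cells held 64.2% of the *Slc40a1* counts of the tdTomato+ library and 81.4% of those of the tdTomato- library, and endothelial cells 17.5% and 0.0504%. Monocytes had 57.7 CPM in the tdTomato+ library, against 4.501 CPM in the tdTomato- library. With monocytes limited to at most 1 endothelial count (210 tdTomato+ and 244 tdTomato- cells) the values were 5.18 and 4.54 CPM, and tdTomato+ monocytes as a whole carried 817 CPM of *Stab2*.

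*Id1* was the member that did not mark Kupffer cells. Its level was 223 CPM (215 to 231) in tdTomato+ cells, against 299 CPM (281 to 317) in tdTomato- Kupffer cells, while other C1qa cells had 256 and 326 CPM. Monocytes had 232 and 247 CPM and endothelial cells 176 and 254 CPM, against 4.51 and 6.38 CPM in T cells. The order in tdTomato+ cells was other C1qa cells, monocytes, Kupffer cells, endothelial cells and T cells. The intervals of other C1qa cells (235 to 278 CPM) and monocytes (221 to 243 CPM) overlapped there, as did those of monocytes and Kupffer cells. In tdTomato- cells Kupffer cells came second, and the interval of the 21 endothelial cells (177 to 354 CPM) covered the levels of all classes but T cells, while those of Kupffer cells and other C1qa cells (309 to 343 CPM) overlapped. Kupffer cells accordingly held 13.8% of the *Id1* counts of the tdTomato+ and 21.4% of those of the tdTomato- library. Lone other C1qa cells had 390.0 and 620 CPM, each above lone Kupffer cells of the same library. Like *Marco* it was uneven, with 54.5% and 50.7% of its counts in the leading 10% of the Kupffer cells.

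Between the libraries 0 of the 10 genes passed the rule of size in Kupffer cells, which asked for 50 CPM or more in either library, for a 2-fold difference or more in either direction and for an interval that leaves out 1. Of 4276 genes with 50 CPM in Kupffer cells of either library 6.15% passed it, 3.13% higher and 3.02% lower in tdTomato+ cells. The median log2 ratio of the members was 0.16, beside 0.02 over those 4276 genes. The largest ratios were those of *Cd5l*, with a log2 ratio of 0.54 (0.50 to 0.57), and *Clec4f*, with 0.50 (0.48 to 0.53), followed by *Slc40a1* with 0.35 (0.31 to 0.39). *Marco* had 0.25, *Timd4* 0.18 and *Vsig4* 0.15. *Id1* had a ratio of −0.42 (−0.52 to −0.32), and *C1qa* one of −0.04 (−0.07 to −0.02).

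The choice of cells moved several of these ratios. In cells of the gate with a *Clec4f* count, *Slc40a1* was at 2247 CPM in the tdTomato+ library, against 2071 CPM in the tdTomato- library (log2 ratio 0.12), *Marco* at 228 and 225 CPM (0.02), *Cd5l* at 3617 and 2891 CPM (0.32) and *Clec4f* itself at 4613 and 3854 CPM (0.26). In lone Kupffer cells *Marco* was at 255 and 133 CPM (log2 ratio 0.93, 0.62 to 1.27), and *Timd4* at 680 and 552 CPM (log2 ratio 0.30, 0.14 to 0.47). The other log2 ratios in lone cells were 0.50 for *Clec4f*, 0.45 for *Cd5l*, 0.24 for *Slc40a1* and between −0.04 and 0.11 for the C1q chains. The *Marco* ratio was −0.61 in Kupffer cells with endothelial counts, −0.27 in those with T cell counts and 0.73 in lone cells with *Clec4f*, so it had no fixed direction. In the Kupffer cells with endothelial counts, 385 in the tdTomato+ library, against 27 in the tdTomato- library, all 10 genes were lower in tdTomato+ cells, with log2 ratios between −0.28 for *C1qb* and −1.11 for *Id1*. Summed endothelial markers were at 5477 CPM in those tdTomato+ cells, against 594 CPM in the tdTomato- cells, with 12 and 2 of 12 at 50 CPM, and the defining *Ptprb* and *Clec4g* were at 0 in the tdTomato- cells. In those with T cell counts, 149 and 83 cells, these markers were at 5376 and 186 CPM, and *C1qa* had −0.44, *C1qb* −0.38 and *C1qc* −0.33, while *Clec4f* had 0.41 and *Cd5l* 0.53. *Vsig4* in lone cells was at 1461 and 1493 CPM, with an interval across no difference (−0.13 to 0.07).

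*Id1* was the exception among lone cells, and there it passed 2-fold. Lone Kupffer cells had 245 CPM (225 to 267) in the tdTomato+ library, against 527 CPM (475 to 584) in the tdTomato- library, with −1.11 (−1.30 to −0.91) as its log2 ratio. Of 4047 genes 3.93% passed the rule in these cells, 1.61% higher and 2.32% lower in tdTomato+ cells. With *Clec4f* required as well the ratio was −1.14 (−1.34 to −0.93), beside 3.19% of 4109 genes past the rule, 1.51% higher and 1.68% lower. It was −1.11 (−1.31 to −0.89) in Kupffer cells with endothelial counts and 0.04 (−0.14 to 0.23) in those with T cell counts. The counts came from few cells: the leading 10% of the lone cells held 66.8% of the tdTomato+ and 54.0% of the tdTomato- counts, the cell at the 90th percentile had 631 and 965 CPM, and 47.5% and 50.7% of the lone cells had any *Id1* count. At 2000 UMIs 24.2% of 198 tdTomato+ and 37.7% of 61 tdTomato- lone cells had a count.

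**Figure D3:**
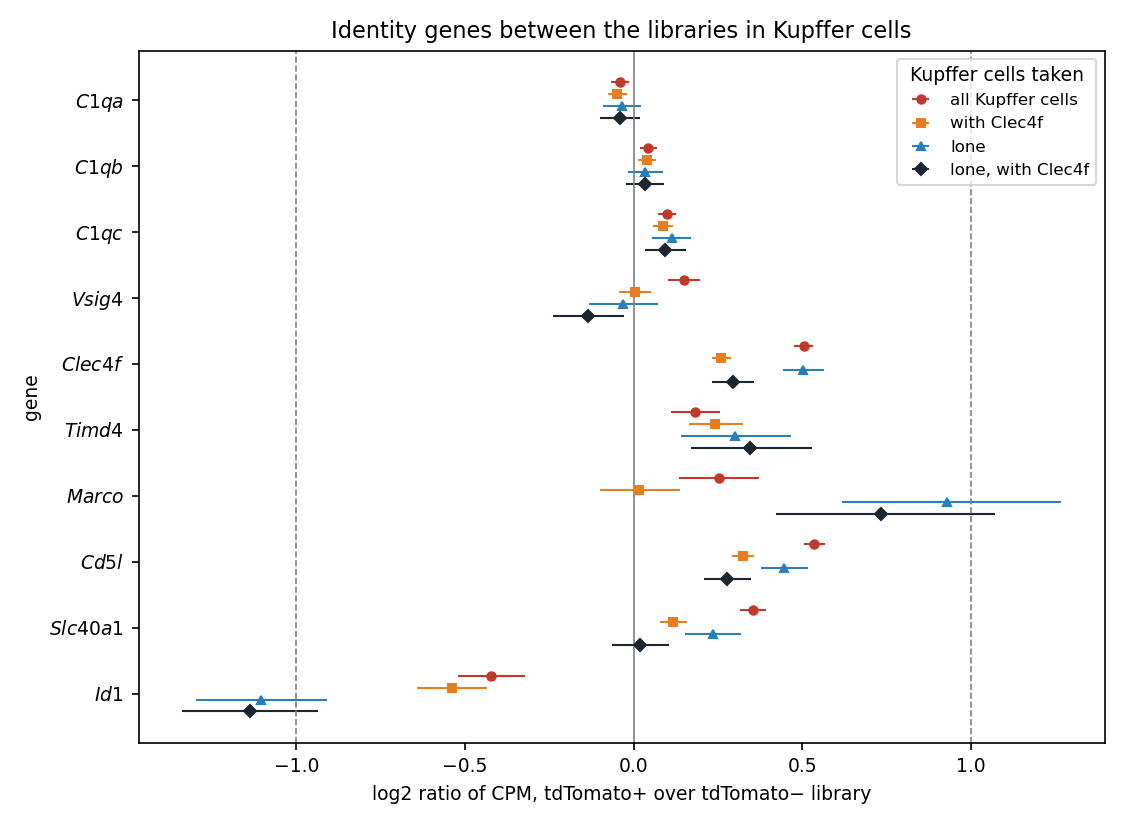
Log2 ratio of CPM, tdTomato+ over tdTomato- library (horizontal axis), of the 10 genes in all Kupffer cells, those with *Clec4f*, lone Kupffer cells and lone cells with *Clec4f*. Bars are 95% counting intervals and dashed lines mark 2-fold. *Id1* lies below −1 in both lone selections, *Marco* moves from 0.02 with *Clec4f* to 0.93 in lone cells, and the C1q chains stay near 0.

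A small set of cells entered the gate through *Vsig4* alone, 7 of 905 in the tdTomato+ library, against 27 of 236 in the tdTomato- library. They had the C1q genes, with 2681 CPM of *C1qb* in tdTomato+ and 4127 CPM in tdTomato- cells, against 4430 and 4309 CPM in cells of the gate with *Clec4f*. *Timd4* was at 307 and 595 CPM, against 576 and 487 CPM. The other identity genes were lower: *Marco* had 1 and 5 counts in all (5.39 and 8.08 CPM, against 228 and 225 CPM), *Cd5l* was at 1521 and 410 CPM, against 3617 and 2891 CPM, and *Slc40a1* at 599 and 112 CPM, against 2247 and 2071 CPM. In the tdTomato- cells of this set *C1qb* and *Timd4* were thus near their levels in cells with *Clec4f*, while *Marco*, *Cd5l* and *Slc40a1* were below them. *Vsig4* itself was at 307 and 506 CPM, against 1368 and 1365 CPM.

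These *Vsig4*-only cells carried other genes at levels that Kupffer cells with *Clec4f* lacked, and the genes named here were chosen after their values had been seen. *Prg4*, which encodes a lubricating proteoglycan, had 3237 CPM in the tdTomato+ *Vsig4*-only cells and 2096 CPM in the tdTomato- ones, against 0.564 and 1.30 CPM in cells with *Clec4f*. *Fn1*, the gene of fibronectin, was at 4531 and 2406 CPM, against 3.60 and 16.2 CPM, and *Alox15*, a lipoxygenase gene, at 1122 and 892 CPM, against 0.141 and 0.324 CPM. *Gata6*, a transcription factor known from large peritoneal macrophages, had 102 and 46.9 CPM, against 0.282 and 0 CPM. Both *Prg4* and *Fn1* were found in 2 of the 7 tdTomato+ cells and 11 of the 27 tdTomato- cells, so the set was mixed. The Kupffer genes *Folr2*, at 43.2 and 150 CPM against 923 and 891 CPM, and *Cd163*, at 5.39 and 22.6 CPM against 217 and 220 CPM, were low in it.

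**Figure D4:**
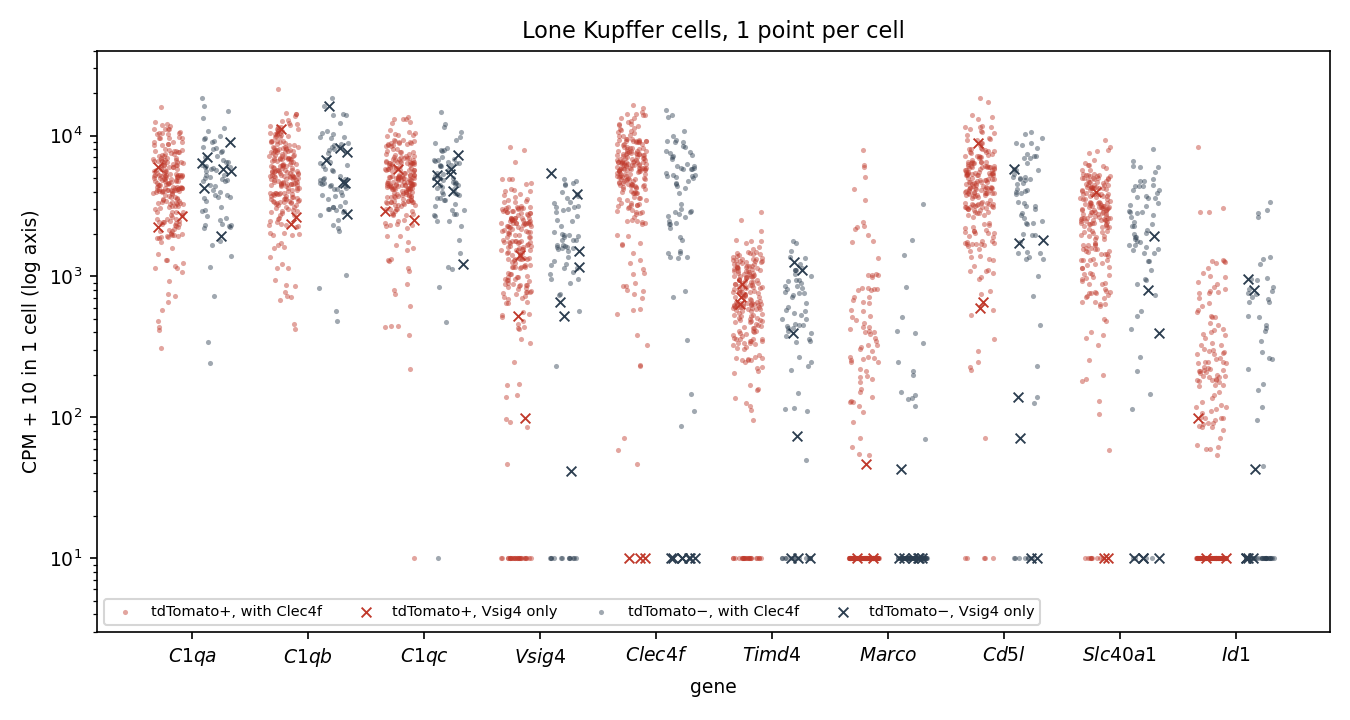
CPM + 10 in single lone Kupffer cells (vertical log axis) for the 10 genes, 1 point per cell, with the 223 tdTomato+ cells left of the 73 tdTomato- cells. Points are cells with *Clec4f*, crosses the 3 tdTomato+ and 7 tdTomato- cells with *Vsig4* only, and cells without a count lie at 10. *C1qb* has a count in all 223 and all 73 cells, and *C1qa* has one by the gate. Among tdTomato+ cells with *Clec4f*, *C1qa* ranges at least from 300 to 15892 CPM. *Marco* and *Id1* range from no count to 3276 CPM or more in either library.

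Detection together was examined over the 7 genes that the gate did not use, with each cell thinned to 2000 UMIs. At least 4 of the 7 were found in 90.05% of tdTomato+ and 79.7% of tdTomato- Kupffer cells, with a median of 5 genes in both. Other C1qa cells had at least 4 in 11.7% of 120 and 8.68% of 219 cells, with a median of 2, which the 2 C1q genes alone can fill. Monocytes had 4 or more in 0 of 440 and 0 of 242 cells, endothelial cells in 3 of 6056 and 0 of 17, and T cells in 0 of 2397 and 3 of 12729. In lone Kupffer cells the shares were 96.0% of 198 and 80.3% of 61. Monocytes, endothelial cells and T cells were limited to under 3 *C1qa* counts, which holds down *C1qb* and *C1qc* there. The gates thus bear on their low values, and none are given without that limit.

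**Figure D5:**
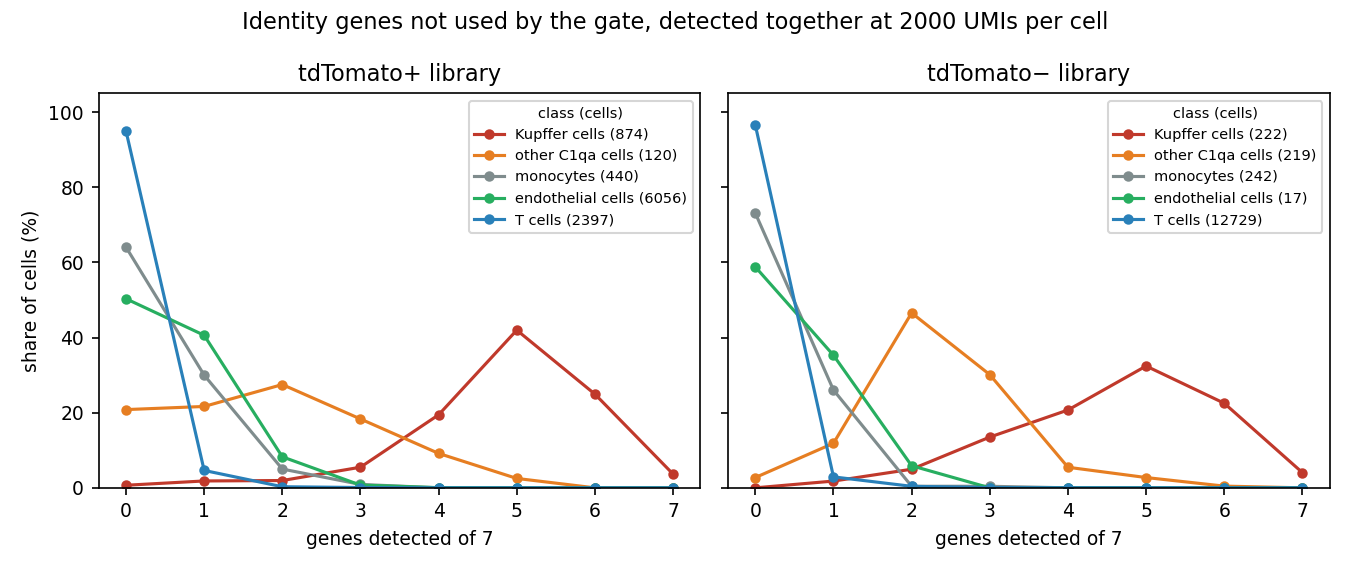
Share of cells (vertical axis, percent) by the number of the 7 genes not used by the gate that were detected at 2000 UMIs per cell (horizontal axis), for 5 classes in the tdTomato+ (left) and tdTomato- library (right). Kupffer cells peak at 5 genes in both panels, other C1qa cells at 2, and monocytes, endothelial cells and T cells at 0.

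Within Kupffer cells the genes that vary were compared pair by pair among lone cells with *Clec4f*, 195 tdTomato+ and 56 tdTomato- cells with at least 2000 UMIs. *Timd4* was detected in 73.3% of 161 tdTomato+ cells with *Vsig4* and 41.2% of 34 without, and in 72.1% of 43 tdTomato- cells with *Vsig4* and 23.1% of 13 without. *Cd5l* showed the same direction, in 98.8% of tdTomato+ cells with *Vsig4* and 82.4% of those without, and in 97.7% and 23.1% of tdTomato- cells. *Marco* was detected in 25.8% of tdTomato+ cells with *Timd4* and 22.2% of those without, and in 29.4% and 9.09% of tdTomato- cells. *Id1* was found in 25% of tdTomato+ cells with *Timd4* and 22.2% of those without, and in 35.3% and 40.9% of tdTomato- cells, with no common direction. The numbers without a gene are small, down to 13 cells, and cells of a library are not replicates.

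By the same levels *Clec4f*, *Cd5l*, *C1qa*, *Vsig4* and *C1qc* took ranks 1 to 5 of 3600 genes ordered by the lower of the 2 libraries' log2 ratios of Kupffer cells over the highest of monocytes, endothelial cells and T cells. *Fcna*, a ficolin gene at 1592 CPM in tdTomato+ cells, against 1455 CPM in tdTomato- Kupffer cells, ranked 6, and *C1qb* 7. *Igf1*, a growth factor gene, *Folr2*, a folate receptor gene, and *Cd207*, the gene of langerin, ranked 8 to 10. *Cd207* was at 140 CPM in tdTomato+ cells, against 352 CPM in tdTomato- Kupffer cells, and at 174 and 691 CPM in lone cells (log2 ratio −1.99, −2.19 to −1.79). *Timd4* ranked 11 and *Marco* 15, while *Slc40a1*, which endothelial cells share, ranked 50 and *Id1* 852. The gate used 3 of these genes. The limit on *C1qa* in the other classes lowered *C1qb* and *C1qc* there, and *Cd5l*, *Timd4*, *Marco* and *Slc40a1* in monocytes. These ranks are thus a description.

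Likeness of pattern was taken over the 5 classes in both libraries (10 points, Pearson correlation of log2(CPM + 1) among 6659 genes), and 5 of the 10 genes, the C1q chains, *Vsig4* and *Clec4f*, were closest to another of the 10. The points share cells, libraries and gates, so the values only describe likeness. *C1qa* was closest to *C1qc*, with a correlation of 0.998, then to *Fcna* and *Cd207*, and *C1qb* was closest to *C1qa*, with 0.969. *Vsig4* was closest to *Clec4f*, with 0.996, both being emptied from other C1qa cells by the gate. *Timd4* was closest to *Adgb*, with 0.992, then *Kcnk13* and *Adamdec1*, and *Cd5l* to *Gm14221*, with 0.992, then *Igf1* and *Marco*. *Marco* was also closest to *Gm14221*, with 0.987. *Slc40a1* was closest to *Zdhhc14*, with 0.986, then *Il18bp* and *Dbndd2*, and *Id1* to *Asph*, with 0.987.

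Genes that work with the members were followed by list. As a background for every list, 6.15% of 4276 genes passed the rule of size in all Kupffer cells, 3.13% higher and 3.02% lower. Their median log2 ratio was 0.02. In lone cells 3.93% of 4047 genes passed, 1.61% higher and 2.32% lower, with a median of 0.04. The lists are short, so their counts are a description. Lone cells include 3 of 223 tdTomato+ and 7 of 73 tdTomato- cells with *Vsig4* only, and the lists are not given without them. Of the complement list, 12 of 16 genes had 50 CPM in Kupffer cells, and 0 were past 2-fold higher and 2 past 2-fold lower in tdTomato+ cells, with a median log2 ratio of 0.07. The 2 were *C5ar1*, the receptor for C5a, at 46.6 CPM in tdTomato+ cells, against 124 CPM in tdTomato- cells, and *Itgam*, a chain of complement receptor 3, at 40.2 and 138 CPM. *Cfp*, which encodes properdin, was at 1224 and 1110.0 CPM, and at 1538 and 1375 CPM in lone cells. In lone cells 14 genes were tested, 4 higher and 2 lower. The higher ones were *C3*, at 209 CPM in tdTomato+ cells, against 44.0 CPM in tdTomato- lone cells, *Cfb*, encoding factor B, at 262 and 86.5 CPM, *C2*, at 65.2 and 17.0 CPM, and *Itgax*, at 77.4 and 21.3 CPM. For *C3* 34.6% of the tdTomato+ counts came from 1 of the 64 cells with a count. *C5ar1* and *Itgam* were again the lower ones.

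The iron and heme list had 0 of 12 genes past 2-fold in either direction, among all Kupffer cells and among lone cells. Beside 6.15% and 3.93% of all genes, 12 genes are too few to set this list apart. Its medians were 0.22 in both, against 0.02 and 0.04 over all genes. *Hmox1*, heme oxygenase, was at 726 CPM in tdTomato+ cells, against 631 CPM in tdTomato- Kupffer cells, and the ferritin gene *Fth1* at 3131 and 3057 CPM. In lone cells *Hmox1* was at 797 and 811 CPM and *Fth1* at 3968 and 3219 CPM. The ferritin light chain gene *Ftl1* had the largest log2 ratio of the genes tested, 0.62 (0.58 to 0.66), at 2000.3 and 1301 CPM, and one of 0.57 (0.48 to 0.67) in lone cells. *Blvrb*, a biliverdin reductase gene, was at 576 and 399 CPM, and at 682 and 464 CPM in lone cells. *Trf*, encoding transferrin, was on the other side, at 398 and 555 CPM (log2 ratio −0.48, −0.55 to −0.40), as it was in lone cells, at 567 and 722 CPM (log2 ratio −0.35, −0.50 to −0.20).

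The scavenger and uptake receptors, 16 of 17 tested, had 2 past 2-fold higher and 0 lower in tdTomato+ Kupffer cells, and a median of 0.33. These were *Stab1*, at 175 and 54.5 CPM, and *Fcgr2b*, at 401 and 42.1 CPM, both of which tdTomato+ endothelial cells carried at 987 and 3377 CPM. In lone cells neither was higher: *Stab1* was at 44.4 CPM in tdTomato+ cells, against 70.9 CPM in tdTomato- cells and *Fcgr2b* at 21.7 and 45.4 CPM. Lone cells were chosen for few endothelial counts, so lower levels of genes that endothelial cells carry can come from the choice itself. The cause was not tested. In lone cells the list had 0 genes past 2-fold higher and 1 lower of 15, the fatty acid receptor gene *Cd36*, at 43.0 and 128 CPM. *Mertk*, a receptor for dying cells, was at 759 CPM in tdTomato+ cells, against 723 CPM in tdTomato- lone cells, with an interval across no difference (−0.07 to 0.22 on the log2 scale).

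The BMP and Id list is read with the same limit. In all Kupffer cells 3 of 10 genes were past 2-fold higher in tdTomato+ cells, *Eng* at 287 and 22.4 CPM, *Bmp2* at 134 and 4.59 CPM and *Smad6* at 68.6 and 29.4 CPM, and tdTomato+ endothelial cells had 2193, 1151 and 242 CPM of these. In lone cells these were at 33.5 and 32.6 CPM, 2.26 and 4.25 CPM and 36.7 and 35.5 CPM. There 0 of 7 genes were higher and 1, *Id1*, was lower, with a median of −0.24. *Id2* was at 710 CPM in tdTomato+ cells, against 940 CPM in tdTomato- lone cells (log2 ratio −0.41, −0.54 to −0.27), and *Id3*, an Id gene that Kupffer cells are known to need, at 1066 and 1319 CPM (log2 ratio −0.31, −0.42 to −0.20). The 3 Id genes were thus on the same side in lone cells. In all Kupffer cells *Id3* was on the other side, at 1088 and 881 CPM.

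Kupffer regulators had 0 of 11 genes past 2-fold in either direction in all Kupffer cells, beside 6.15% of all genes. Their median was 0.23, beside 0.02 over all genes. *Zeb2* was at 1311 CPM in tdTomato+ cells, against 1384 CPM in tdTomato- cells, *Csf1r*, the receptor for macrophage colony-stimulating factor, at 1519 and 1128 CPM, and *Nr1h3*, encoding LXRα, at 286 and 254 CPM. In lone cells *Zeb2* was at 1585 and 1697 CPM, *Csf1r* at 1710.4 and 1385 CPM and *Nr1h3* at 410.1 and 316 CPM. There 1 gene was lower, the Notch mediator *Rbpj*, at 24.9 and 52.5 CPM. *Spic*, a regulator of iron-recycling macrophages, was at 205 and 140 CPM in lone cells (log2 ratio 0.54, 0.23 to 0.88). Of 13 other Kupffer genes, 1 was higher in all Kupffer cells and 2 in lone cells, *Dnase1l3*, at 296 and 112 CPM in lone cells, and the potassium channel gene *Kcna2*, at 123 and 44.0 CPM. *Dnase1l3* was also at 2920 CPM in tdTomato+ endothelial cells, *Kcna2* at 0.223 CPM. Genes of monocyte-derived or injury-type macrophages had a median of −0.74 over 5 tested in all Kupffer cells, with 0 higher and 2 lower in tdTomato+ cells. These were the chemokine receptor genes *Ccr2*, at 31.1 and 70.7 CPM, and *Cx3cr1*, at 24.7 and 90.1 CPM. They were lower in lone cells too, at 19.9 and 101 CPM and at 33.5 and 116 CPM, where 6 genes of the list were tested, 1 higher (*Itgax*) and 3 lower. The last of these was the tetraspanin gene *Cd9*, at 38.9 and 106 CPM, and the median was −0.63. *Clec12a*, the gene of this list with the highest level in the gate, ran the other way without reaching 2-fold. It was at 282 and 216 CPM in all Kupffer cells (log2 ratio 0.38, 0.28 to 0.50). In lone cells it was at 341 and 252 CPM (log2 ratio 0.43, 0.20 to 0.68).

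The genes that differed most between the libraries in the gate were none of the 10. The 10 highest in tdTomato+ Kupffer cells were *Meis2*, *Fbxl7*, *Sema6a*, *Ptprb*, *Flt4*, *Ldb2*, *Adam23*, *Stox2*, *Esam* and *Clec14a*, among them the endothelial receptor gene *Ptprb*, at 494 CPM in tdTomato+ cells, against 0.540 CPM in tdTomato- cells. The 10 lowest were *Retnla*, *Slpi*, *Klra5*, *Saa3*, *Trdc*, *Cbr2*, *Trav13-2*, *Padi4*, *Klre1* and *Gzmb*, which include lymphocyte genes. *Gzmb*, encoding granzyme B, was at 39.8 and 452 CPM. *Retnla*, at 4.11 and 449 CPM, came from 5 tdTomato+ and 9 tdTomato- cells, and all 1664 of its tdTomato- counts lay in *Vsig4*-only cells.

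In lone cells *Slpi*, *Retnla* and *Saa3* were again among the 10 lowest, and the 10 highest shared no gene with those of the whole gate. Highest in tdTomato+ cells were *Ubd*, *Art2a*, *Gm12703*, *Ccl5*, *Iigp1*, *Serpina3f*, *C3*, *Cxcl10*, *Oas3* and *C2*. *Iigp1*, a GTPase gene that interferons induce, was at 134 CPM in 100 of 223 tdTomato+ cells and at 24.1 CPM in 10 of 73 tdTomato- cells. *Cxcl10*, an interferon-induced chemokine gene, was at 191 and 41.1 CPM, with counts in 55 and 10 cells. *Ubd* was at 66.5 and 0 CPM, at least 15.6-fold higher against a floor of 3 counts over the tdTomato- group, but it came from 7 cells. Lowest were *Slpi*, *Chil3*, *Emp1*, *Retnla*, *Rgcc*, *Anxa1*, *Tpm3-rs7*, *Saa3*, *Ccl9* and *S100a4*. Many of these rested on single cells. One cell held 99.5% of the tdTomato- counts of *Slpi*, 97.8% of those of *Rgcc*, 81.4% of *Retnla*, 76.5% of *Chil3*, 62.1% of *Saa3*, 53.2% of *Emp1* and 52.6% of *Anxa1*. Of the tdTomato+ counts of *Gm12703* 56.9% came from 1 cell. *Tpm3-rs7* was spread more widely, with counts in 19 tdTomato+ and 34 tdTomato- cells.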

How the data were processed

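The authors deposited raw UMI counts per gene and barcode for the tdTomato+ and tdTomato- libraries, made with Cell Ranger (matrix header version 10.0.0, mm10 in the submitters' notes). The deposited T cell receptor contigs were not used. CPM, log2 ratios and shares were computed here from those counts, over 203366009 UMIs in the tdTomato+ and 156771260 UMIs in the tdTomato- library, with python 3.11.15, numpy 2.4.6, scipy 1.17.1 and pandas 2.3.3.

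Cell classes were gated on counts, as given above. Monocytes needed at least 3 *Lyz2* counts, a *Csf1r* count and 2 counts of *Ly6c2*, *F13a1*, *Ccr2*, *Treml4* and *Ace*, and no *Cd3e*, *Cd79a* or *Flt3*. Endothelial cells needed 5 counts of *Stab2*, *Kdr*, *Ptprb* and *Clec4g* and no *Ptprc*, *Cd3e* or *Cd79a*, T cells 3 counts of *Cd3d*, *Cd3e* and *Cd3g* and no *Cd79a*, and B cells 3 of *Cd79a* and no *Cd3* count, both with at most 1 endothelial count. In the matrices 26 symbols occur more than once, none of them a gene named here. No doublet caller was run, and the gate was split by endothelial, T and B cell counts instead. Free RNA was read from T and B cells, all with under 3 *C1qa* counts.

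Levels have exact Poisson, shares exact binomial (Clopper-Pearson) and ratios exact conditional binomial 95% intervals, and 0.5 counts were added for log2 ratios. The calculation was tested on simulated data. The members, lists and gates were chosen with earlier results of these data known. The genes named beside them were the 10 with the largest ratio each way (50 CPM or more in 1 library), the 10 most enriched, the 3 nearest in pattern, and of each list the 3 highest in tdTomato- Kupffer cells and the 3 with the largest ratios, of which a selection is given. Results on some genes are not reported here. The same ranking in lone cells, and list genes beyond that rule, were added after their values were seen. Alternatives covered the gates, cell filters, scaling, thinning depth and minimum level.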

Additional observations from a re-analysis of the deposited data

Results flagged for a closer look

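*Id1* was set apart because its contrast of Kupffer cells over monocytes ran in opposite directions in the libraries. The log2 ratio was −0.059 (−0.14 to 0.03) in the tdTomato+ library, from 223 CPM in Kupffer cells and 232 CPM in monocytes. It was 0.28 (0.15 to 0.40) in the tdTomato- library, from 299 and 247 CPM. The tdTomato+ interval includes no difference, each direction rests on 1 library, and the difference between the libraries was not tested.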

How the results depend on the processing

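Counting intervals leave out the spread between animals, and 73 lone tdTomato- cells limit the values of *Marco* and *Id1*. No paired analysis was possible because each sort gave 1 library, and no replicate could be left out. Among recomputed values of the main results 71 stayed near the reported value and 37 moved, and among recomputed ratios of single genes 76 stayed and 56 moved. The cause was not tested where the setting itself does not show it.

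The count of genes past 2-fold was 0 and became 1, *Id1*, in lone cells with or without *Clec4f* required. The median log2 ratio of 0.16 was 0.24 with a *C1qa* minimum of 1, 0.023 with both *Clec4f* and *Vsig4* required, 0.074 without cells above 2 times the median UMI count, 0.063 in lone cells with *Clec4f* (chosen after seeing the data), 0.11 as a mean of single-cell CPM and 0.11 thinned to 2000 UMIs. The gate held 5.98% of tdTomato+ and 1.91% of tdTomato- cells with a *C1qa* minimum of 1, 4.49% and 1.14% with one of 10, 4.72% and 0.996% with both partner genes, 1.27% and 0.402% as lone cells, and 4.55% and 1.13% without cells of high UMI count. The *Timd4* share of 62.8% and 56.3% was 56.5% and 47.2% with a *C1qa* minimum of 1, 66.1% and 64.4% with both partner genes, 45.3% and 41.99% at 1000 UMIs, 82.0% and 81.4% at 5000 UMIs and 90.9% and 85.2% without thinning. For tdTomato+ cells it was also 66.2% with a *C1qa* minimum of 10 and 67.7% in lone cells, with or without *Clec4f* required. The *Marco* share of 21.7% and 19.8% was 13.5% and 12.99% at 1000 UMIs, 33.7% and 27.6% at 5000 UMIs and 44.4% and 33.1% without thinning. Over all draws of 2000 UMIs, an alternative added after seeing the data, the expected shares were 62.8% and 55.8% for *Timd4* and 21.0% and 18.7% for *Marco*. Over 13 alternatives the log2 ratios of *Clec4f* (0.14 to 0.59), *Cd5l* (0.21 to 0.63), *Slc40a1* (0.02 to 0.44), *Timd4* (0.10 to 0.35) and *C1qc* (0.02 to 0.20) stayed above 0 and that of *Id1* (−1.14 to −0.25) below it. Those of *C1qa*, *C1qb*, *Vsig4* and *Marco* fell on both sides. The split of the gate by endothelial or T cell counts is not among these alternatives and turned more of them. All 10 genes were highest in tdTomato- Kupffer cells when these were limited to lone cells or to cells without a high UMI count and the other classes were not. Against lone other C1qa cells *Id1*, at 527 CPM against 620 CPM, and *Marco*, at 133 CPM against 249 CPM, were not. Scaling by the median ratio of 3600 genes shifted log2 ratios by 0.016.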
